A study of Mus musculus with 9 samples.

Results

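The serotonin receptor genes Htr1a, Htr1b, Htr1f, Htr2a, Htr2c, Htr3a, Htr4, Htr5a and Htr7 were followed in mouse prefrontal cortex by their gene symbols. These were 9 of the 24532 genes listed for every mouse, and all 9 were among the 14370 genes that averaged at least 30 reads and could be tested. The 9 C57BL/6 mice, labelled as 11 weeks old, fell into 3 groups of 3: unstressed wild-type mice (CT), wild-type mice under chronic restraint stress (WT_ST) and Fkbp5-/- mice under the same stress (KO_ST). Restraint lasted 6 h a day over 21 days. Fkbp5 encodes FKBP51, a co-chaperone that restrains the glucocorticoid receptor, and the knockout line had been backcrossed to C57BL/6J and bred from heterozygous parents. The design addressed how stress acts on the cortex with and without this gene. An unstressed Fkbp5-/- group was not analysed here, so in KO_ST against CT the stress and the deletion cannot be told apart. Because WT_ST and KO_ST were both set against the same 3 CT mice, those 2 comparisons share their controls.

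Serotonin reaches the prefrontal cortex along axons from the raphe nuclei, and the receptor that meets it decides what a neuron does next. Htr1a, Htr1b, Htr1f and Htr5a encode receptors coupled to Gi/o proteins, which lower cyclic AMP and, for Htr1a, open potassium channels that quieten pyramidal cells. Htr2a and Htr2c couple to Gq and phospholipase C, Htr4 and Htr7 couple to Gs and raise cyclic AMP, and Htr3a forms a cation channel carried in the cortex by a class of inhibitory interneurons. Htr2a in deep pyramidal neurons is the target of classical psychedelics, and Htr1a and Htr2c are long-studied targets in work on anxiety and depression.

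Stretches of Htr2c and Htr2a are shown, the most abundant receptors by mean and among those described further on whose groups did not overlap in a comparison. The Htr2c message is edited by adenosine deaminases, and the stretch printed first covers codons 155 to 164 of its 459-codon reading frame, on the coding strand of the GENCODE transcript on GRCm38. Capitals mark the 3 codons in which adenosine-to-inosine editing recodes the receptor, codons 157, 159 and 161. Gene-level reads do not tell the edited forms apart, so Htr2c values are the sum of all of them. The other sequence is the 250 bases before the RefSeq start of Htr2a on GRCm38.p6, at chr14:74640624-74640873 on the plus strand, shown because it was the single receptor promoter in which the letters searched for were found. Capitals there mark TGTTCT, which is common in glucocorticoid receptor sites, and the match is by letters alone.
Htr2c edited stretch: gtagcaATAcgtAATcctATTgagcatagc
Htr2a promoter: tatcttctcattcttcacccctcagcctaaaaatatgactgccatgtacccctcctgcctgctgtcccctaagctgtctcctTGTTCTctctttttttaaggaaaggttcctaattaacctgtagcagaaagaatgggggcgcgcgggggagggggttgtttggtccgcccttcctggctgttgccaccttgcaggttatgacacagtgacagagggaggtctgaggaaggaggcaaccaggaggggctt

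RefSeq promoters were matched for 7 of the 9 genes, all but Htr3a and Htr4. AGAACA or its reverse complement TGTTCT was found in 1 of the 7, the Htr2a promoter, starting at position -168 from the gene's start. Of all 32851 promoters of the same length, 16.1% held either form. Base composition varied widely among the receptors. The Htr7 promoter was 82.0% G and C with 41 CpG dinucleotides, Htr5a reached 62.0% with 13, and the other matched members lay between 49.2% and 55.6%, around the median of 52.4% over all promoters. The windows follow the transcript starts of the promoter table, and for Htr7, Htr5a and Htr2c they do not end at the start of the gene's full span. The Htr7 window lies wholly inside that span, the Htr5a window mostly and the Htr2c window in small part. Htr2c spans 234814 bases of the X chromosome (chrX:146962464-147197277) and Htr1a only 4441 (chr13:105443693-105448133). None of the small RNA genes listed inside Htr2c had a read in any mouse. Htr1b (chr9:81628291-81633832, minus strand) overlaps the antisense gene D430036J16Rik, which was counted at 136 to 320 reads per mouse. The libraries were stranded, but whether counting used the strand is not given in the sources used here, so Htr1b values are uncertain.

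The libraries held between 43778471 and 61150128 reads counted on genes. Fkbp5 was lower in every KO_ST mouse than in every other mouse: it was measured at an FPKM of 6.46 to 7.61 in CT, 9.47 to 10.2 in WT_ST and 3.60 to 4.69 in KO_ST. The direction follows the labels, but a value over the whole gene does not check a homozygous deletion. FPKM is scaled for transcript length and for the mapped reads of a library, and is used here for every comparison of levels between genes. Each library came from a separate mouse by its label, and the p-values therefore measure the spread between mice.

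Htr2a was the most abundant serotonin receptor message, with a mean of 10.03 FPKM over the 9 mice. Htr2c followed at 7.62, Htr1a at 7.37, Htr5a at 5.04, Htr1b at 4.0, Htr3a at 2.93, Htr7 at 2.33, Htr1f at 1.16 and Htr4 at 0.323. The receptors were modestly expressed for this tissue: only Htr2a lay above the median of the tested genes, with 54.9% of them below it. Htr2a exceeded Htr2c in 8 of the 9 mice, the exception being KO_ST replicate 1. Htr2c and Htr1a could not be ordered, with Htr2c above Htr1a in 0 of the CT mice, 2 of the WT_ST mice and 2 of the KO_ST mice. Going down the order of the 9, the ranges of neighbours were separate between Htr1a and Htr5a, between Htr7 and Htr1f and between Htr1f and Htr4, and overlapped elsewhere.

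**Figure D1:**
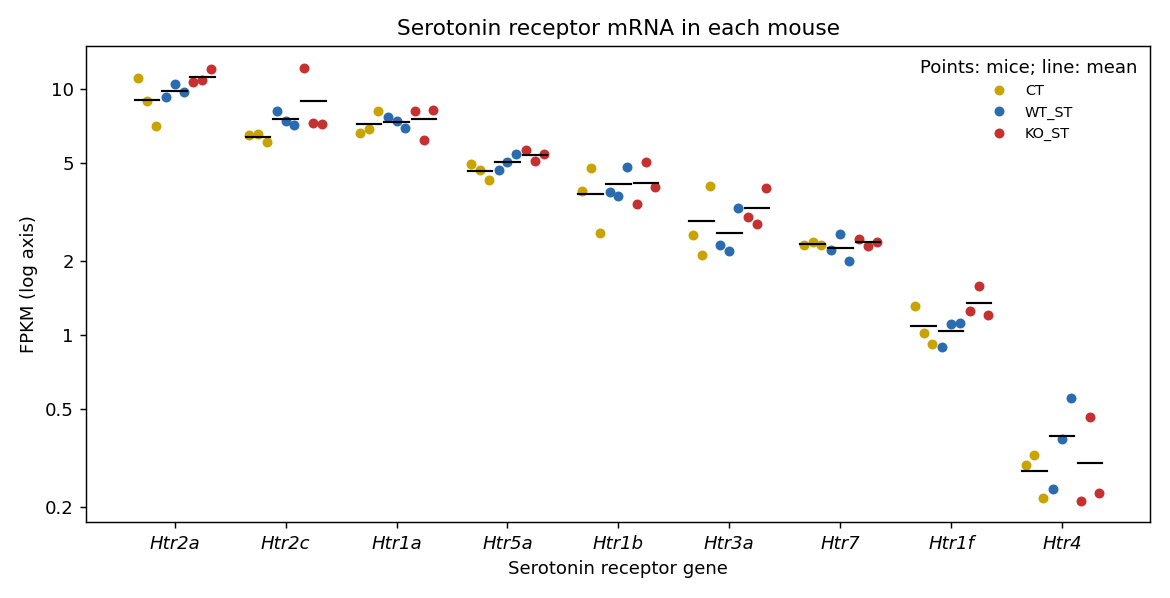
FPKM of the 9 serotonin receptor genes (log axis) in each mouse, with 1 point per mouse coloured by group and a line at the group mean. Htr2a is the highest and Htr4 the lowest gene by mean, and KO_ST replicate 1 stands at 12.2 for Htr2c above the 8 other mice.

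The 5 remaining serotonin receptor genes added little to this picture. Htr6, another Gs-coupled receptor, averaged 2.73 FPKM, Htr5b 0.393 and Htr1d 0.173. Htr2b was counted at 0 to 8 reads per mouse, and Htr3b at 7 reads in CT replicate 2 and 0 in the others. Only Htr6 and Htr5b had enough reads to be tested, and neither was called in any comparison.

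Summed over all 14 receptors, the FPKM came to 43.3, 40.8 and 39.0 in the CT mice, 42.3, 43.9 and 44.7 in WT_ST and 49.9, 44.9 and 48.2 in KO_ST. Every KO_ST mouse was above every mouse of the other groups, though KO_ST replicate 2 exceeded WT_ST replicate 3 by little, and the sum was not tested. By coupling, Gi/o receptors made up 41.2% of the sum on average, Gq receptors 39.9%, Gs receptors 12.3% and the channel subunits 6.67%. The Gq share was 37.5% ± 3.35 in CT, 39.9% ± 1.88 in WT_ST and 42.2% ± 3.22 in KO_ST (SD, n = 3). Its group ranges overlapped, and it was highest, at 45.9%, in KO_ST replicate 1. The Gs share ran from 12.68% to 13.49% in CT, from 11.94% to 13.60% in WT_ST and from 9.70% to 11.86% in KO_ST, while the summed Gs FPKM averaged 5.41, 5.51 and 5.22 and the sum of all receptors 41.1, 43.6 and 47.7. Htr6, the largest Gs message, was at 2.17 FPKM in KO_ST replicate 1, its lowest value.

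**Figure D2:**
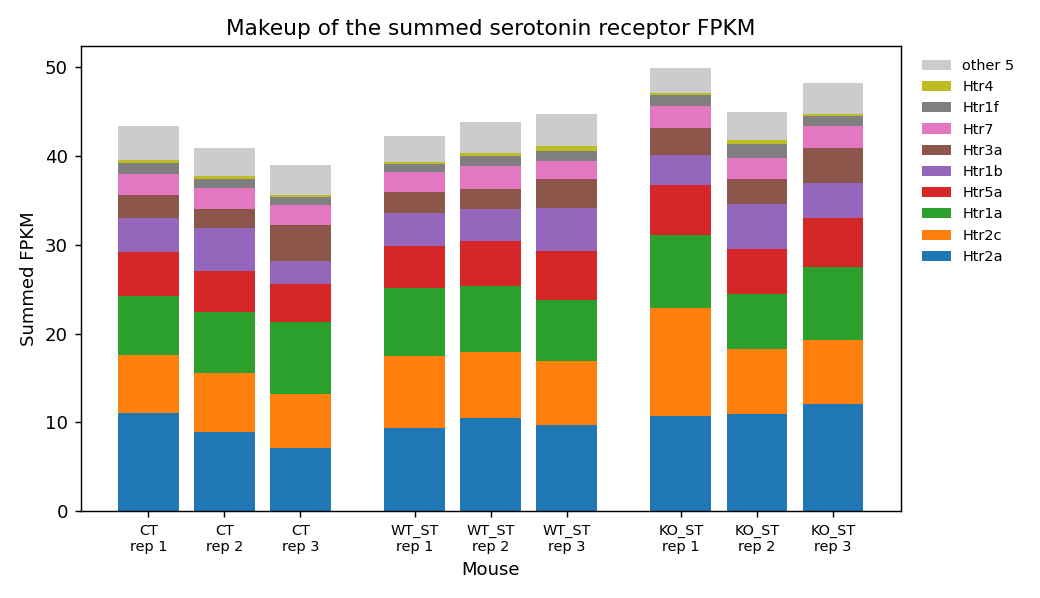
Summed FPKM of the 14 serotonin receptor genes in each mouse, stacked by gene, with the 5 other receptors joined in gray. The 3 KO_ST bars reach 49.9, 44.9 and 48.2, and the CT bars 43.3, 40.8 and 39.0.

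The receptors differed in how far mice of one group varied. Pooled over the groups, Htr5a and Htr7 were the steadiest, with coefficients of variation within groups of 6.86% and 7.62%. Htr1a followed at 11.2%, Htr2a at 13.9%, Htr1f at 15.9%, Htr2c at 19.2%, Htr1b at 22.4%, Htr3a at 26.2% and Htr4 at 37.7%. The Htr2c value rested on KO_ST replicate 1: its coefficient was 3.998% in CT and 6.55% in WT_ST, and 32.3% in KO_ST. Counting error alone, from the reads behind each gene, ranged from 2.38% for Htr2c to 12.1% for Htr4. The spread between mice was above it for all 9 genes pooled over the groups. For Htr7 the counting error was 5.24%, and its spread was below that in CT (1.79%) and KO_ST (3.19%) and above it in WT_ST (12.7%). Htr4 rested on 45 to 118 reads per mouse and Htr2c on 1452 to 2599.

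**Figure D3:**
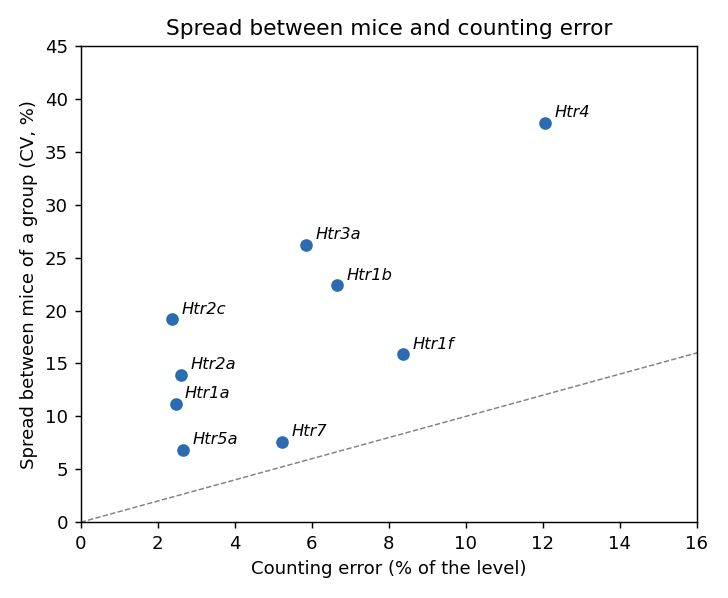
Coefficient of variation between mice of a group (vertical, %, pooled over the 3 groups) against the counting error expected from the reads in each mouse (horizontal, %), with 1 point per receptor gene and a dashed line where they are equal. All 9 points lie above the line, from Htr5a at 6.86% to Htr4 at 37.7%.

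Differences between groups were tested with limma on quantile-normalized log2(FPKM+1), and a gene was called at an unadjusted p under 0.05 with a fold change above 1.2. Log2 fold changes are on the log2(FPKM+1) scale, which understates differences of the low genes. None of the 9 receptors was called in WT_ST against CT, where 2.47% of all tested genes were called, in KO_ST against CT (3.56%) or in KO_ST against WT_ST (2.0%). At an unadjusted p under 0.05 alone, 1 of the 9 passed in each comparison, beside 7.86%, 9.46% and 5.82% of all tested genes. With Benjamini-Hochberg adjustment over all tested genes none of the 9 passed 0.05, beside 0.0348%, 0.0626% and 0.153% of all tested genes, and the same held for edgeR and DESeq2 on the read counts. By these methods KO_ST against CT had 1 receptor called with edgeR (Htr2c, beside 4.63% of all tested genes) and 2 with DESeq2 (Htr2a and Htr2c, beside 5.14%), and the other comparisons had 0. With all 9 mice sharing 1 estimate of the spread in limma, Htr2c in WT_ST against CT (unadjusted p = 0.191) and Htr2a in KO_ST against WT_ST (unadjusted p = 0.189) no longer passed, and Htr2a, Htr2c and Htr5a passed in KO_ST against CT, as did 1680 of the 14370 tested genes. In bulk tissue, fewer cells of a type and less RNA per cell cannot be told apart.

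By direction, 6 of the 9 receptors had a higher mean in WT_ST than in CT, 9 of 9 in KO_ST than in CT, and 8 of 9 in KO_ST than in WT_ST. Among all tested genes the corresponding shares were 51.3%, 51.0% and 49.3%. Of the 2 other receptors that could be tested, Htr6 and Htr5b, 1, 0 and 1 had a higher mean in the same order. In KO_ST against CT Htr6 was at -0.072 and Htr5b at -0.00062 on the log2 scale, and in KO_ST against WT_ST at -0.13 and 0.046. The median log2 fold change of the 9 was 0.13, 0.19 and 0.09 in these comparisons, against 0.0034, 0.0024 and -0.0015 over all tested genes. In KO_ST against CT the direction of all 9 was kept under every other scaling tried, while leaving out CT replicate 3 turned Htr1b and Htr4 to slightly lower values and leaving out KO_ST replicate 2 turned Htr4. FPKM of the groups did not overlap for 1 receptor in WT_ST against CT (Htr2c, higher), beside 6.03% of tested genes that were higher without overlap. They did not overlap for 2 in KO_ST against CT (Htr2c and Htr5a, higher, beside 5.90%) and for 2 in KO_ST against WT_ST (Htr1f and Htr2a, higher, beside 4.29%). No receptor was lower without overlap in any of the 3 comparisons, beside 7.95%, 10.6% and 6.76% of tested genes.

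**Figure D4:**
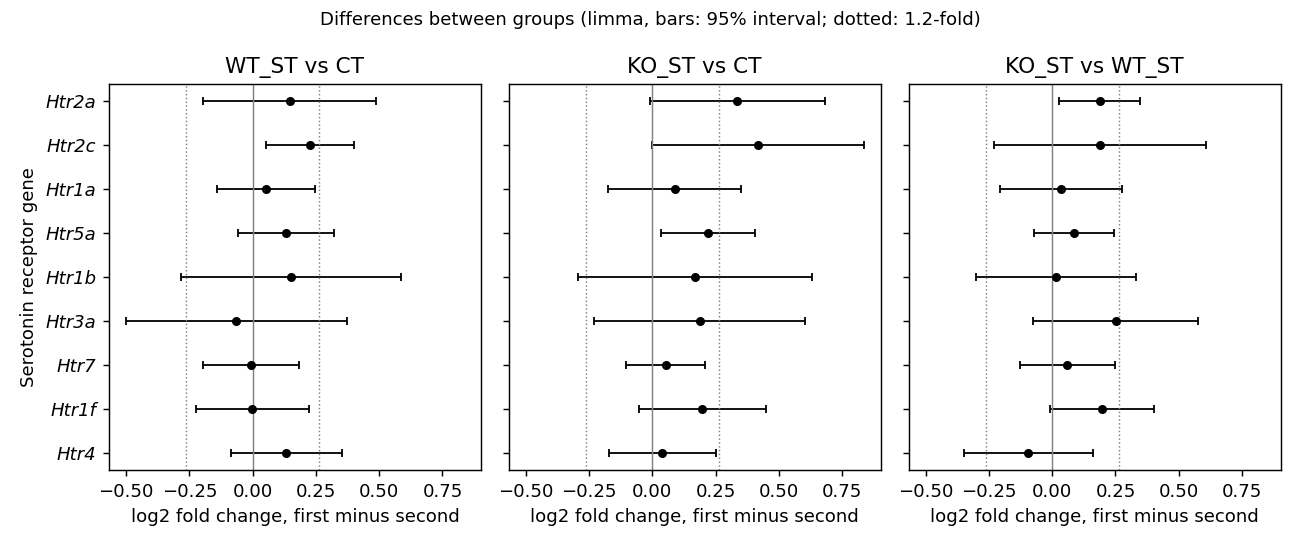
Log2 fold change of each receptor gene in the 3 comparisons (points, first group minus second) with the 95% interval from limma (bars) and dotted lines at a 1.2-fold difference. The interval lies above 0 for Htr2c in WT_ST against CT, Htr5a in KO_ST against CT and Htr2a in KO_ST against WT_ST.

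Among the Gq-coupled receptors, Htr2c was measured at 6.51, 6.59 and 6.11 FPKM in CT, at 8.11, 7.39 and 7.17 in WT_ST and at 12.2, 7.30 and 7.19 in KO_ST. All 6 stressed mice were above all 3 CT mice, a pattern shared by 2.01% of tested genes. In WT_ST against CT its log2 fold change was 0.23 (standard error 0.0731, 95% interval 0.05 to 0.40, unadjusted p = 0.0168 and adjusted p = 0.634 from limma), a 1.17-fold difference under the fold threshold, and it reached 0.26 and was called without WT_ST replicate 3. Without CT replicate 3 it was 0.19 (unadjusted p = 0.0525 from limma) and without WT_ST replicate 1 it was 0.17 (unadjusted p = 0.0551 from limma), so neither passed 0.05. Set against CT, the KO_ST mice differed by 0.42 on the log2 scale (standard error 0.178, unadjusted p = 0.0512 and adjusted p = 0.533 from limma). That value leaned on 1 mouse. It was called at 0.52 and 0.54 without KO_ST replicate 2 or 3. Without KO_ST replicate 1 the KO_ST mean was 7.25 FPKM instead of 8.91, or 1.13 times the CT mean, and the log2 fold change was 0.19 by limma (unadjusted p = 0.0430, 1 KO_ST mouse fewer). Against WT_ST, Htr2c was 0.19 higher in KO_ST (adjusted p = 0.944 from limma), and without KO_ST replicate 1 the difference turned to -0.034.

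Htr2c is also made in large amounts by the choroid plexus, the epithelium that secretes cerebrospinal fluid. The 10 choroid plexus markers together came to 1.28 to 1.67 FPKM in CT, 1.04 to 1.28 in WT_ST and 1.23 to 1.42 in KO_ST. KO_ST replicate 1, the mouse with the high Htr2c, was at 1.23, but its markers went different ways. Ttr (0.366 FPKM), Folr1 (0.0961), Clic6 (0.168) and Prlr (0.0519) were higher in it than in any other mouse, and Kl (0.241) and Aqp1 (0.0809) lower than in any other. All of these levels were close to 0, and their part in the Htr2c value was not tested. That mouse also had the lowest summed level of 5 microglia markers, 33.7 FPKM, where the other KO_ST mice reached up to 66.5. Of the 5, Aif1 was at 6.65 FPKM in it, inside the range of the other mice. The part of the lower summed level in its Htr2c value was not tested.

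Htr2a (chr14:74640874-74706859, plus strand) was measured at 11.1, 8.93 and 7.07 FPKM in CT, at 9.31, 10.5 and 9.69 in WT_ST and at 10.7, 10.9 and 12.1 in KO_ST. The KO_ST mice were all above the WT_ST mice, whereas the CT mice spread from 7.07 to 11.1 and overlapped both stressed groups. KO_ST exceeded WT_ST by 0.19 on the log2 scale (standard error 0.0680, 95% interval 0.03 to 0.35, unadjusted p = 0.0274 and adjusted p = 0.830 from limma), and the unadjusted p no longer passed 0.05 without WT_ST replicate 1 (0.0822), WT_ST replicate 3 (0.0727) or KO_ST replicate 3 (0.0909). KO_ST exceeded CT by 0.33 (standard error 0.147, unadjusted p = 0.0560 and adjusted p = 0.539 from limma), and without CT replicate 1 this was 0.49 and was called. For WT_ST against CT the value was 0.15 (interval -0.20 to 0.49), and it turned to -0.0079 without CT replicate 3 and was called at 0.30 without CT replicate 1. Without CT replicate 3, the lowest CT mouse, KO_ST exceeded CT by 0.18.

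Among the Gi/o-coupled receptors, Htr5a (chr5:27841716-27855086, plus strand) had the smallest spread. It was measured at 4.95, 4.70 and 4.26 FPKM in CT, at 4.70, 5.04 and 5.47 in WT_ST and at 5.67, 5.10 and 5.44 in KO_ST. All KO_ST mice were above all CT mice, and WT_ST overlapped both. The difference of KO_ST from CT was 0.22 on the log2 scale (standard error 0.0793, 95% interval 0.03 to 0.41, unadjusted p = 0.0275 and adjusted p = 0.501 from limma). At 1.16-fold this was under the fold threshold, and it reached 0.26 and was called without CT replicate 1. The unadjusted p no longer passed 0.05 without CT replicate 3 (0.0822), KO_ST replicate 1 (0.0862) or KO_ST replicate 3 (0.0624), from limma. In WT_ST against CT it was 0.13 (interval -0.06 to 0.32) and in KO_ST against WT_ST 0.09 (interval -0.07 to 0.25).

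Htr1f, a Gi/o-coupled receptor targeted by lasmiditan in migraine (chr16:64924729-65105784, minus strand), was measured at 1.32, 1.02 and 0.917 FPKM in CT, at 0.891, 1.11 and 1.12 in WT_ST and at 1.26, 1.59 and 1.21 in KO_ST. The KO_ST mice were all above the WT_ST mice, while CT replicate 1 lay within the KO_ST range. Between KO_ST and WT_ST the log2 difference was 0.20 (standard error 0.0873, unadjusted p = 0.0565 and adjusted p = 0.852 from limma). With a pseudocount of 0.1, which compresses low genes less, it was 0.33, and edgeR gave 0.38, while leaving out KO_ST replicate 2 lowered it to 0.12. The difference from CT was 0.20 in KO_ST (interval -0.05 to 0.45), with 0.12 on leaving out CT replicate 3 or KO_ST replicate 2, and 0.28 and a call without CT replicate 1. In WT_ST against CT it was near 0, with an interval of -0.22 to 0.22.

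Htr1a, the autoreceptor of raphe neurons that also sits on cortical pyramidal cells, differed least among the abundant receptors. It was measured at 6.64, 6.86 and 8.12 FPKM in CT, at 7.67, 7.45 and 6.96 in WT_ST and at 8.15, 6.22 and 8.24 in KO_ST. The groups overlapped throughout, and the 95% interval of its log2 fold change was -0.14 to 0.25 in WT_ST against CT, -0.18 to 0.35 in KO_ST against CT and -0.21 to 0.27 in KO_ST against WT_ST. Htr1b, which acts on axon terminals to lower transmitter release, was measured at 3.86, 4.79 and 2.60 FPKM in CT, at 3.80, 3.69 and 4.84 in WT_ST and at 3.40, 5.04 and 3.99 in KO_ST. Its intervals were wide, from -0.29 to 0.63 in KO_ST against CT, and could not exclude a fold difference above 1.2 in either direction. The antisense gene D430036J16Rik was counted at 251, 320 and 147 reads in the CT mice, in the same order as Htr1b among them. The orders differed within the stressed groups, where it was counted at 192, 195 and 205 reads in WT_ST and at 136, 145 and 175 in KO_ST. Its share in the Htr1b values was not tested.

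The Gs-coupled Htr7 (chr19:35958415-36058133, minus strand) stayed within 1.999 to 2.57 FPKM in all 9 mice. It was measured at 2.32, 2.39 and 2.32 in CT, at 2.21, 2.57 and 1.999 in WT_ST and at 2.46, 2.31 and 2.40 in KO_ST. The 95% interval of its log2 fold change was -0.20 to 0.18 in WT_ST against CT, -0.10 to 0.21 in KO_ST against CT and -0.13 to 0.25 in KO_ST against WT_ST. All of them lay inside a 1.2-fold difference in either direction on the log2(FPKM+1) scale. Htr4, the other Gs-coupled member, was measured at 0.296, 0.325 and 0.217 FPKM in CT, at 0.236, 0.377 and 0.554 in WT_ST and at 0.212, 0.464 and 0.228 in KO_ST. The groups overlapped, and the spread between mice of a group was above the counting error (log2 fold change 0.13 in WT_ST against CT, adjusted p = 0.732 from limma). Without the compression by the pseudocount of 1 the values were larger: 0.48 in WT_ST against CT and -0.35 in KO_ST against WT_ST by edgeR (adjusted p = 0.749 and 0.972). In limma, leaving out WT_ST replicate 3 gave 0.051 instead of 0.13 and -0.012 instead of -0.09. Without WT_ST replicate 1 the limma values were 0.21 (unadjusted p = 0.0485) and -0.17, and without KO_ST replicate 2 KO_ST against WT_ST was -0.18. WT_ST replicate 3 was not left out under edgeR, which gave -0.16 in KO_ST against WT_ST without KO_ST replicate 1. Htr4 is abundant in the striatum, which borders the region, and WT_ST replicate 3, highest for Htr4, was also highest for the striatal genes Drd2 (2.28 FPKM), Adora2a (2.07 FPKM) and Rgs9 (11.0 FPKM). Other striatal markers went elsewhere: Drd1 and Ppp1r1b were highest in WT_ST replicate 2, Penk and Tac1 in KO_ST replicate 1, and KO_ST replicate 2, second to it for Htr4, had the lowest Adora2a (0.627 FPKM). The part of neighbouring tissue in the Htr4 values was not tested.

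Htr3a, the channel subunit (chr9:48899213-48911152, minus strand), was measured at 2.56, 2.11 and 4.03 FPKM in CT, at 2.33, 2.20 and 3.30 in WT_ST and at 3.03, 2.83 and 3.96 in KO_ST. The 3 groups overlapped, with 1 high mouse in each, replicate 3 every time. With the replicate block in limma the unadjusted p of KO_ST against WT_ST was 0.0163, where the main fit gave 0.113. For KO_ST against CT it was 0.0807, where the main fit gave 0.326. The adjusted p with the block was 0.981 and 0.494, and neither difference was called. KO_ST was 0.25 above WT_ST on the log2 scale (interval -0.08 to 0.58, adjusted p = 0.899 from limma), a value that ranged from 0.14 without KO_ST replicate 3 to 0.38, and a call, without WT_ST replicate 3. For WT_ST against CT the value was -0.06, and it turned to 0.12 without CT replicate 3 and to 0.03 without WT_ST replicate 2. Against CT, KO_ST was 0.19 higher, a value that ranged from 0.051 without CT replicate 2 to 0.38, and a call, without CT replicate 3. The 10 markers of inhibitory neurons, several of them shared by Htr3a cells, came together to 269 to 331 FPKM in CT, 324 to 356 in WT_ST and 327 to 349 in KO_ST. None of the 10 was called, and 7, 9 and 9 of them had a higher mean in WT_ST against CT, KO_ST against CT and KO_ST against WT_ST. Of all tested genes 51.3%, 51.0% and 49.3% did. Their part in the receptor values was not tested.

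The genes around the receptors were read from the same fit. Of 15 genes for serotonin synthesis, transport and breakdown, 10 could be tested and none was called in any comparison. The most abundant were Qdpr, which recycles tetrahydrobiopterin, at means of 61.5, 66.2 and 65.2 FPKM in CT, WT_ST and KO_ST, followed by the aldehyde dehydrogenase gene Aldh2 and the biopterin synthesis gene Spr. The 4 raphe markers Tph2, Slc6a4, Fev and Slc18a2 together stayed at or below 0.399 FPKM, with Fev at 0 in every mouse. The cell bodies of these neurons lie in the brainstem.

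Of 34 genes for G proteins and effectors, 33 were tested, and 1 was called in WT_ST against CT, 1 in KO_ST against CT and 0 in KO_ST against WT_ST. These counts are near the shares of all tested genes called in the same comparisons, 2.47%, 3.56% and 2.0%, so Rgs8 and Kcnj3 are given as values only. Rgs8, which speeds the shut-off of Gi/o signals, was measured at 12.4, 11.3 and 17.0 FPKM in CT and at 18.5, 16.9 and 15.9 in WT_ST. CT replicate 3 lay within the WT_ST range, and the log2 fold change was 0.33 (unadjusted p = 0.0444 and adjusted p = 0.635 from limma). Kcnj3, a subunit of the GIRK potassium channel opened by Htr1a, was measured at 25.82, 25.67 and 29.13 FPKM in CT, at 30.05, 29.29 and 29.17 in WT_ST and at 31.93, 30.09 and 34.86 in KO_ST. The 3 groups did not overlap, though neighbouring groups came within a few hundredths of each other, and KO_ST exceeded CT by 0.27 on the log2 scale (standard error 0.0694, unadjusted p = 0.00603 and adjusted p = 0.470 from limma). The most abundant genes of this list, Gnas, Gnao1 and Rgs4, were not called. Nor was any of the 21 receptor-binding and receptor-editing genes, led in abundance by Dlg4, Ywhaz and Arrb1. The median log2 fold change of the G protein list was 0.02 in each comparison and that of the binding and editing list -0.0046, -0.01 and -0.02.

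Marker lists of other cell types and regions were read beside the receptors. Of all tested genes, 2.47% were called in WT_ST against CT, 3.56% in KO_ST against CT and 2.0% in KO_ST against WT_ST. Microglia markers Csf1r, Cx3cr1, P2ry12 and Tmem119 were called lower in both stressed groups against CT (4 of 5 markers each), and P2ry12 also in KO_ST against WT_ST. The summed level of the 5 was 76.6 to 97.0 FPKM in CT, 59.8 to 66.6 in WT_ST and 33.7 to 66.5 in KO_ST. The other marker, Aif1, was not called and overlapped between the groups. It was measured at 4.29, 5.01 and 10.8 FPKM in CT, 3.72, 7.48 and 6.53 in WT_ST and 6.65, 9.07 and 4.205 in KO_ST. The astrocyte genes Aqp4 and Slc1a3 were called lower in WT_ST against CT (2 of 5 markers), while 2 of the 5, Aldh1l1 and Gfap, had a higher mean there. Among the striatal markers reported here, Adora2a, Drd2 and Rgs9 were called higher in WT_ST against CT, Drd2 and Tac1 higher in KO_ST against CT, and against WT_ST Rgs9 lower and Tac1 higher in KO_ST. The deep-layer gene Bcl11b was called higher in both stressed groups against CT (1 of 7 markers), and 5 of the 7 had a higher mean in WT_ST and 4 in KO_ST. Excitatory neuron, upper-layer and oligodendrocyte markers had 0 calls. None of these markers passed an adjusted p of 0.05 by limma, and their part in the receptor values was not tested.

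For each receptor, the tested gene whose values followed it most closely over the 9 mice was found by Pearson's r on quantile-normalized log2(FPKM+1). These genes were picked as the highest of all tested genes, so the correlations are descriptions. Htr1f went with Pclo, a presynaptic scaffold gene (r = 0.964, Spearman's rho = 0.967), and r was 0.961 without the 2 mice farthest from the median of Htr1f. Htr2c went with Ube2k (r = 0.947, and 0.877 without CT replicate 3 and KO_ST replicate 1). Htr2a went with Luzp1 (r = 0.951), which dropped to 0.779 without CT replicates 2 and 3 and so leaned partly on them. The others were Csf1 for Htr1a (0.947), Ptprn2 for Htr1b (0.963), Rcn2 for Htr3a (0.935), Polr2h for Htr4 (0.965), Ipp for Htr5a (0.962) and 3110062M04Rik for Htr7 (0.915). Among these 9 genes only Ipp was called, higher in KO_ST against CT (log2 fold change 0.28, unadjusted p = 0.0163 and adjusted p = 0.499 from limma).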

How the data were processed

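RNA-seq of prefrontal cortex from 9 mice was analysed, 3 per group, grouped by the sample labels. The authors deposited read counts per gene, without normalization, and FPKM values scaled for length and depth. The submitters' processing notes name HISAT2 2.1.0, Bowtie2 2.3.4.1, StringTie 1.3.4d and mm10. Here log2(FPKM+1) was quantile normalized over all mice. Genes with a mean of at least 30 reads were tested with limma 3.58.1 (mean-variance trend, R 4.3.3) on the mice of the 2 groups compared, with Benjamini-Hochberg adjustment. Alternatives were a pseudocount of 0.1, no filter, a mean FPKM of at least 1, no quantile normalization, all 9 mice, edgeR 4.0.16 (TMM, RLE) and DESeq2 1.42.0 on the counts, a replicate block and leaving out each mouse. The scripts were tested on simulated data. Counting error is the Poisson error of the reads and covers counting only. Depth was 43778471 to 61150128 reads.

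The named genes are the receptors, Fkbp5, called genes and the 3 most abundant of each pathway list, and the most alike gene of each receptor. Marker genes named beside them were chosen after their values were seen. The members and lists were chosen with earlier results of these data known. Sequences are from RefSeq (GRCm38.p6) and GENCODE. Proteins were not analysed here. A marker gene of the striatal list is not reported here.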

Additional observations from a re-analysis of the deposited data

How the results depend on the processing

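With 3 mice per group, no receptor passed an adjusted p of 0.05 in any fit. Of 420 receptor values under the alternatives, 381 kept their direction and side of the criterion, 17 newly met it and 22 changed sign, 21 of these on leaving out a mouse. The number of genes called in WT_ST against CT, 355, was 544 with a pseudocount of 0.1, 535 with edgeR (TMM and RLE alike), 552 with DESeq2 and 277 to 542 leaving out a mouse, the highest without CT replicate 3. Of those genes 46.8% were higher, but 34.1% without quantile normalization, 33.1% with edgeR and 34.2% with DESeq2, and 59.4% without CT replicate 3. In KO_ST against CT, 512 genes were called (43.2% higher, 28.5% without quantile normalization and 53.7% without CT replicate 3). There 720 genes were called with a pseudocount of 0.1, 665 and 666 with edgeR, 562 with the replicate block, 544 with all 9 mice, 738 with DESeq2 and 734 (5.11% of tested genes) without CT replicate 1. In KO_ST against WT_ST, 287 became 445 with a pseudocount of 0.1 and 245 to 477 leaving out a mouse, the highest without KO_ST replicate 3. Receptors called in KO_ST against CT were 0 by limma, 1 with a pseudocount of 0.1, with edgeR by TMM or RLE and with the replicate block (Htr2c in each), and 2 with all 9 mice in the fit and with DESeq2 (Htr2a and Htr2c). Leaving out a mouse gave 0 to 3 there: Htr1f, Htr2a and Htr5a without CT replicate 1 (beside 5.11% of tested genes), Htr3a without CT replicate 3 (beside 4.41%), and Htr2c without KO_ST replicate 2 (beside 3.27%) or 3 (beside 4.57%). It gave 0 to 1 receptors in WT_ST against CT (Htr2a without CT replicate 1, beside 3.7%, and Htr2c without WT_ST replicate 3, beside 2.71%). In KO_ST against WT_ST it gave 0 to 1 (Htr3a without WT_ST replicate 3, beside 2.57%). The causes were not tested. With edgeR and without KO_ST replicate 1, an alternative chosen after seeing the data, Htr2c in KO_ST against CT was 0.20 (unadjusted p = 0.0272) and was not called, and in KO_ST against WT_ST Htr1a was -0.015 and Htr2c -0.048. Htr1f in WT_ST against CT became 0.0051 with a pseudocount of 0.1. Log2 fold changes that changed sign on leaving out a mouse ranged, in WT_ST against CT, from -0.046 to 0.31 for Htr1b, -0.075 to 0.082 for Htr1f, -0.0079 to 0.30 for Htr2a, -0.20 to 0.12 for Htr3a and -0.066 to 0.054 for Htr7. In KO_ST against CT they ranged from -0.031 to 0.33 for Htr1b and -0.047 to 0.084 for Htr4. In KO_ST against WT_ST they ranged from -0.026 to 0.14 for Htr1a, -0.11 to 0.12 for Htr1b, -0.034 to 0.31 for Htr2c and -0.00072 to 0.12 for Htr7. Same-numbered mice of different groups did not deviate together (mean r = -0.0102, against 0.00497 for other pairs), so the replicate block was not used as the main fit. Beyond the Htr2c call in KO_ST against CT, it changed no receptor call.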
